A study of Mus musculus with 24 samples.

Results

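The genes described are those of mitochondrial oxidative phosphorylation that the array tables name by subunit. They were taken from the 31483 target IDs (each stands for a transcript that 1 or several probes read) by name alone. The prefixes for complex I were Ndufa, Ndufb, Ndufc, Ndufs and Ndufv, each followed directly by a number. The others were Sdh for complex II, Uqcr and Cyc1 for complex III, Cox4 to Cox8 for complex IV and Atp5 for complex V. The rule left out the assembly factors named Ndufaf, and also Ndufab1, which is in the list of carriers and inhibitor genes below. This gave 74 genes with 1 target ID each: 31 of complex I, 4 of complex II, 7 of complex III, 16 of complex IV and 16 of complex V. The RNA came from Cirh1a+/- mice, heterozygous for a β-Geo gene trap in Cirh1a (a gene that codes for the nucleolar protein cirhin), and from their wild-type littermates, all on the C57BL/6 JAX strain and genotyped by PCR on yolk sac. The tissue was the whole embryo 8.5 days (E8.5) and 9.5 days (E9.5) into development, and the liver at E11.5 and E12.5, with 3 arrays of each genotype at each of these 4 stages and 24 in all. The trap allele is carried by every cell of a heterozygote, and no label tells single embryos from pools.

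Oxidative phosphorylation passes electrons from NADH and succinate through complexes I to IV of the inner mitochondrial membrane to oxygen, and complex V uses the resulting proton gradient to make ATP. The genes measured here are nuclear; each complex except complex II also holds subunits encoded by mitochondrial DNA. Some subunits of cytochrome c oxidase (complex IV) exist as tissue isoforms, with one form in heart and skeletal muscle and another in liver and most other tissues.

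Cirh1a itself had log2 values of 9.90, 9.85 and 9.90 in Cirh1a+/- embryos against 10.64, 10.89 and 10.97 in wild type at E8.5. At E9.5 the values were 10.73, 10.95 and 10.98 in Cirh1a+/- and 11.74, 11.78 and 11.74 in wild type, and at E12.5 they were 9.26, 9.63 and 9.48 in Cirh1a+/- and 10.32, 10.46 and 10.35 in wild type. The groups did not overlap at these 3 stages, and no E11.5 value was analysed here. Of the libraries as a whole, 3 things touch the results below. At E8.5 all 3 Cirh1a+/- arrays carried Xist and all 3 wild-type arrays the Y-linked Eif2s3y, so genotype and sex cannot be told apart there, while at E9.5 all 6 arrays carried both. The livers of both genotypes were mixed at E11.5, with Xist above the stage median in 2 of 3 Cirh1a+/- and 1 of 3 wild-type arrays. At E12.5 Xist was above the stage median in 1 of 3 Cirh1a+/- arrays (replicate 1, at 7.90) and in 0 of 3 wild-type arrays. The E8.5 Cirh1a+/- replicate 1 was low in erythroid markers, with a mean of 5.71 over 13 genes against 9.09 and 9.12 in the other Cirh1a+/- arrays and 8.39 to 9.06 in wild type. The livers expressed hepatoblast markers, with Afp at 12.55 to 12.97 in Cirh1a+/- and 12.59 to 13.00 in wild type at E11.5, while E11.5 Cirh1a+/- replicate 3 also carried heart muscle transcripts. In bulk tissue, fewer cells of a type and less RNA per cell cannot be told apart.

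The promoters of these genes were searched for the letters of motifs known from respiratory chain genes. RefSeq promoter windows of the mouse build GRCm38.p6, each 300 bases long (250 before the start of the gene and 50 after), were found for 60 of the 74 genes. Within these windows, the NRF-1 motif (GCGCANGCGC; nuclear respiratory factor 1 activates many respiratory chain genes) was present on either strand in 16 of 60 (26.7%), against 5.19% of 27025 mouse genes with a window. The motif AAGATGGC of YY1, a zinc finger factor, was present in 10 (16.7%) against 3.19%, and the motif CCGGAAG of GABP (also called NRF-2) and other ETS factors in 16 (26.7%) against 9.93%. The TATA box letters TATAAA were present in 6 (10%) against 15.7%, and the SP1 motif GGGCGG in 23 (38.3%) against 38.2%. The windows of the family were rich in CG dinucleotides, with a median of 19 against 7 over all genes, and among the 10038 genes with at least 15 CG the shares were 12.7% for NRF-1, 5.27% for YY1, 20.2% for CCGGAAG, 7.00% for TATAAA and 78.5% for GGGCGG. These are counts of letters and not of bound sites.

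Below are 4 of these windows, which set the muscle isoform Cox8b beside its liver counterpart Cox8a, and 2 genes that code for the same protein, the c subunit of the ATP synthase ring. All 4 lie on the minus strand and are written 5′ to 3′ along the gene, at chr7:140900397-140900696 (Cox8b), chr19:7217567-7217866 (Cox8a), chr15:102670998-102671297 (Atp5g2) and chr2:73911277-73911576 (Atp5g3). Capitals mark TATAAA in Cox8b, CCGGAAG read on the opposite strand in Cox8a, and GCGCANGCGC in Atp5g2, where the match reads on both strands, and in Atp5g3, where it reads on the opposite strand.
Cox8b: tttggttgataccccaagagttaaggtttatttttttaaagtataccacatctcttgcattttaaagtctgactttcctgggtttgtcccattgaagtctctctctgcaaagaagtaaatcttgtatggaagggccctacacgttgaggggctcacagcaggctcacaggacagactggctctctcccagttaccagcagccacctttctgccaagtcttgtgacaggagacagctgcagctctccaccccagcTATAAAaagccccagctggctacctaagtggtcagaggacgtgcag
Cox8a: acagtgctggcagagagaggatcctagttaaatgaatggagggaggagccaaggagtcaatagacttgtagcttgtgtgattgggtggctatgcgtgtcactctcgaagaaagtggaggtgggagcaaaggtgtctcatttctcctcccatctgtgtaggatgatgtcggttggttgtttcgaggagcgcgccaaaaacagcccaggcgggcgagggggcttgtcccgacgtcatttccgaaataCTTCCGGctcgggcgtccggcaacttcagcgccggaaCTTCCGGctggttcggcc
Atp5g2: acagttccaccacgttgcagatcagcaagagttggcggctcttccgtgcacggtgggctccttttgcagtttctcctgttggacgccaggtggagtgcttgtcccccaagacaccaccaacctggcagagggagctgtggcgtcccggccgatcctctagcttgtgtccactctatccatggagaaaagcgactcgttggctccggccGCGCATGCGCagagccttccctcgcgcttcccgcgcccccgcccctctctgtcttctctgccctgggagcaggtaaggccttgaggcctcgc
Atp5g3: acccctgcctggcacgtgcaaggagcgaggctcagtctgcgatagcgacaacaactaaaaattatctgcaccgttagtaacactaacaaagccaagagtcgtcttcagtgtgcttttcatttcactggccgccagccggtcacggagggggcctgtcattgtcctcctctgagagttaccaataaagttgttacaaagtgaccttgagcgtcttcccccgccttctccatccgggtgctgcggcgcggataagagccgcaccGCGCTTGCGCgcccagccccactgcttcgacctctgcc
The Cox8b window held 2 CG dinucleotides and the Cox8a window 19, with 2 matches to CCGGAAG in Cox8a. The Atp5g2 and Atp5g3 windows held 20 and 21.

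Oxidative phosphorylation genes were among the brightest on the arrays at every stage. A signal percentile was taken as the rank of a target ID within its array among the 25206 with values on all 24 arrays. It reflects the brightness of the probe as well as the amount of RNA, and the stages were normalized apart, so ranks were described and not tested. For the 70 genes with values at all stages the median percentile was 95.3, 96.6, 96.7 and 97.2 at the 4 stages in order of age, and 47, 52, 52 and 52 of them lay above the 90th percentile. The other 4 (Atp5g1, Cox6b1, Cox7c and Cox8a) had values at E9.5 and E11.5 alone and were ranked among all target IDs with values at that stage, where each stood at or above 98.6.

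**Figure D1:**
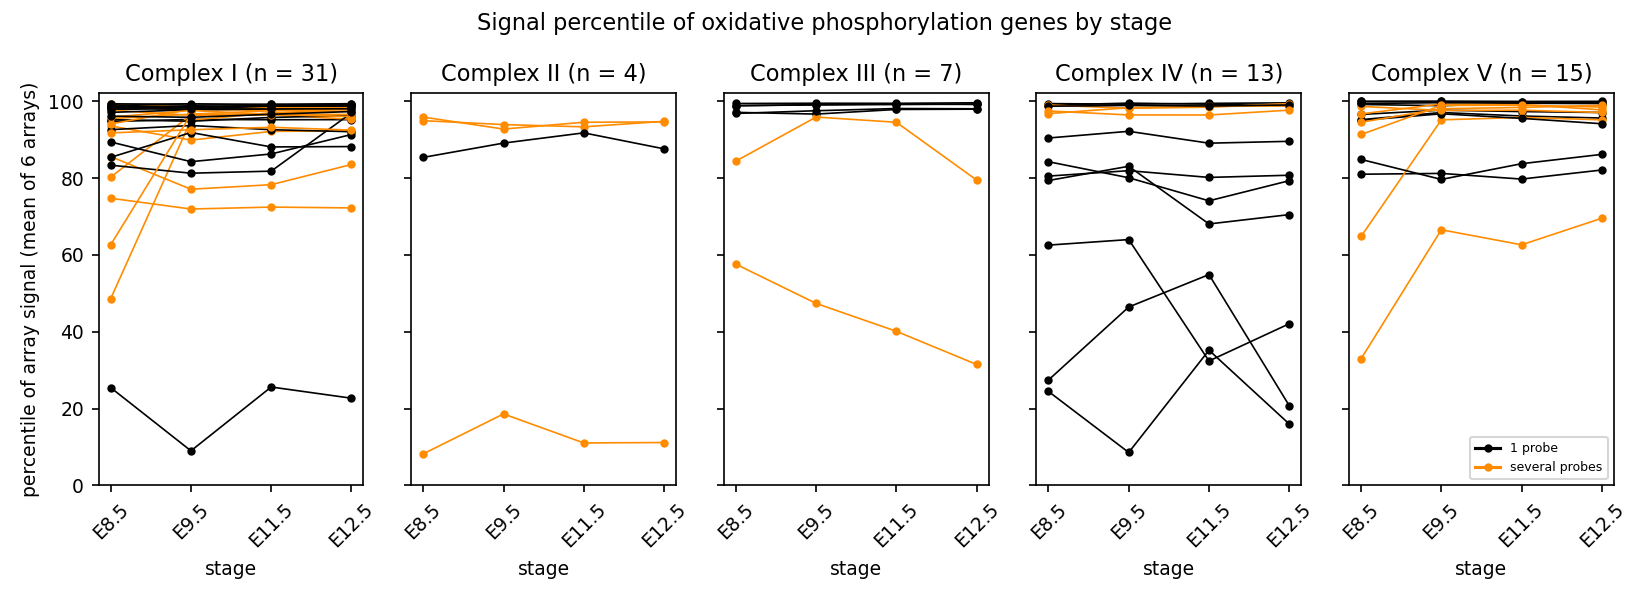
Signal percentile (vertical axis, mean over the 6 arrays of a stage) of the 70 genes with values at all 4 stages (horizontal axis), 1 line per gene, in 1 panel per complex; black lines are genes read by 1 probe and orange lines genes read by several. Most lines run flat above the 90th percentile, and the steep climbs after E8.5 in complexes I and V are orange.

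Complex V held the brightest members. Atp5b, the catalytic beta subunit of the ATP synthase, ranked at 99.9 at each of the 4 stages. Atp5g3, which codes for the c subunit of the membrane ring, ranked at 99.87 to 99.96. Atp5j2 (subunit f) stayed between 99.4 and 99.6. The highest of the other complexes were Ndufa4 (99.2 to 99.3), filed under complex I by name and now counted as a subunit of cytochrome c oxidase, the hinge protein Uqcrh of complex III, Cox4i1 of complex IV (99.2 to 99.6), and Sdhc, a membrane anchor of complex II (92.7 to 95.9).

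Some indispensable subunits ranked far below bright partners. Sdha, the flavoprotein that oxidises succinate, ranked at 8.24, 18.6, 11.1 and 11.2 at the 4 stages, whereas its partner Sdhb, the iron-sulfur subunit, stayed at 93.3 to 94.9. Ndufs1, a core iron-sulfur subunit of complex I, ranked at 9.02 to 25.6, although the core subunits Ndufs7 and Ndufv1 ranked at 97.9 or above. Uqcrfs1, the Rieske protein of complex III, ranked at 57.6 ± 9.2, 47.4 ± 4.5, 40.1 ± 8.1 and 31.5 ± 6.2 at the 4 stages (SD, n = 6). Whether these probes or the transcripts were low was not tested.

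A few members held a different rank at 1 stage. Ndufa6, Ndufc2 and Ndufa5, all accessory subunits of complex I, stood at 48.6 ± 7.1, 62.6 ± 3.8 and 80.2 ± 0.9 at E8.5 (SD, n = 6), and above the 95th percentile at each later stage. In complex V, Atp5pb (subunit b) stood at 64.8 ± 2.5 at E8.5 and at 95.1 to 95.8 later, and Atp5k (subunit e) at 33.0 ± 6.5 and then at 62.6 to 69.5. These 5 were the members more than 10 points lower at E8.5 than at each other stage, and all 5 are read by several probes, as are 26 of the 70. The low E8.5 rank held in both genotypes: Ndufa6 had log2 values of 2.38, 3.15 and 2.64 in Cirh1a+/- and 2.50, 2.96 and 2.53 in wild type. Ndufb6, read by 1 probe, ranked at 97.0 at E12.5 and at 81.3 to 83.3 at the other stages, and Uqcrb ranked at 84.4 and 79.5 at E8.5 and E12.5 but at 95.9 and 94.5 at E9.5 and E11.5. The part of the probes and of the normalization in these shifts was not tested.

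Among the tissue isoforms of cytochrome c oxidase, the muscle form Cox6a2 ranked at 79.4 ± 4.3, 83.1 ± 0.8, 68.1 ± 10.2 and 70.5 ± 2.7 at the 4 stages (SD, n = 6). The muscle form Cox7a1 ranked at 84.2, 80.1, 74.1 and 79.3. Both ranked lowest in E11.5 liver. The hypoxia-linked Cox4i2 ranked at 62.6 ± 3.9 and 64.0 ± 3.3 in whole embryos and 32.4 ± 7.0 and 42.1 ± 13.0 in livers. Cox4i1 did not leave the range given above. The muscle form Cox8b ranked at 20.8 to 54.9 and Cox8c, known from testis, at 8.60 to 35.2. The liver and general forms Cox6a1 (98.1 to 99.4), Cox7a2 (89.1 to 92.2) and Cox7b (80.2 to 81.9) kept their ranks more closely. Cox6b2 and Cox7b2, testis forms that the tables name differently, had E11.5 log2 values of 8.52 to 8.78 and 6.48 to 6.84 in Cirh1a+/- livers and of 8.24 to 9.13 and 6.53 to 6.72 in wild-type livers.

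**Figure D2:**
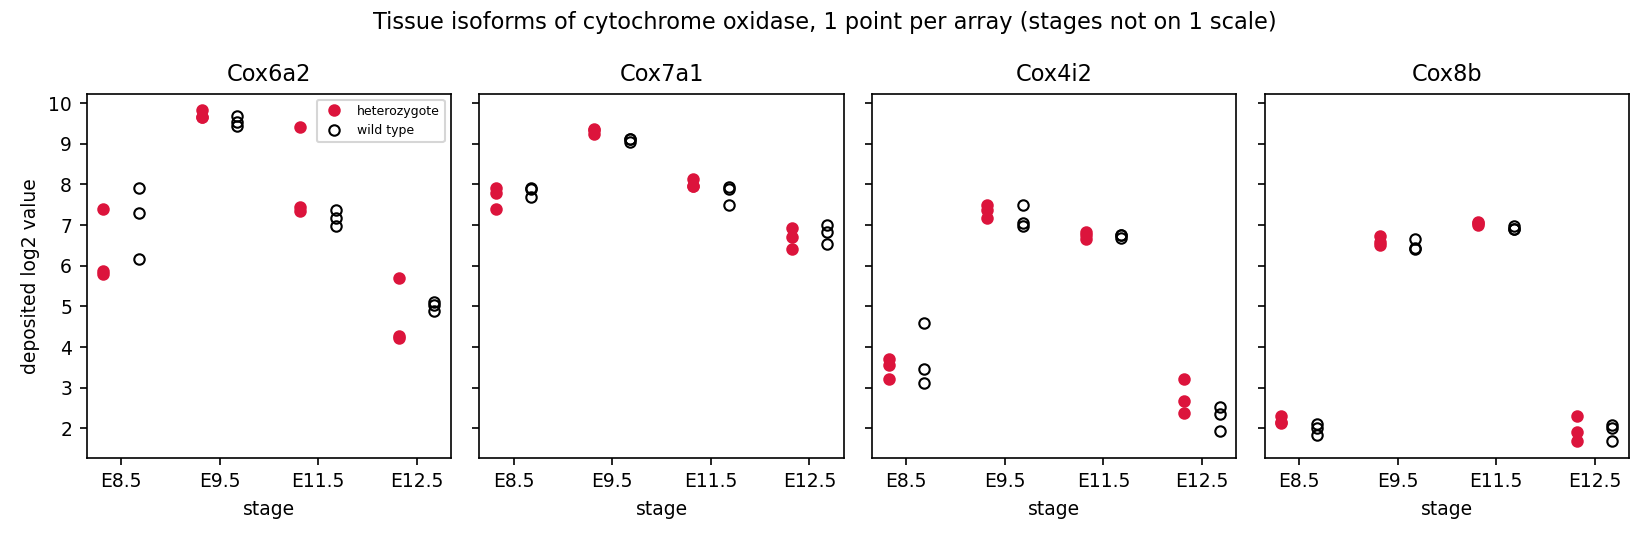
Deposited log2 value (vertical axis) of 4 tissue isoforms of cytochrome c oxidase at each stage (horizontal axis), 1 point per array. Cirh1a+/- arrays are filled points on the left of each stage and wild-type arrays open points on the right. Values of different stages were not brought to 1 scale. One Cirh1a+/- liver at E11.5 stands at 9.41 for Cox6a2, above the other 5 at 6.98 to 7.46.

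Cox6a2 had the largest SD of the members over the 6 arrays at E8.5 (0.902), E11.5 (0.893) and E12.5 (0.555) on the log2 scale, but not at E9.5, where Cox4i2 had it (0.225). In E11.5 liver it had log2 values of 7.46, 7.34 and 9.41 in Cirh1a+/- and 6.98, 7.36 and 7.18 in wild type. Only Cirh1a+/- replicate 3 was high, and the other Cirh1a+/- livers overlapped wild type. In that array the mean over 19 cardiac and striated muscle markers was 8.73, against 7.37 and 7.08 in the other Cirh1a+/- livers and 7.05 to 7.23 in wild type; the atrial myosin light chain Myl7 was at 11.82 there, the cardiac actin Actc1 at 11.47 and Myh6 at 8.32. By their mean over all 6 livers, 12 of the 19 markers lay above the stage median, and Myh7, Nppa, Nppb, Ttn, Pln, Ryr2 and Nkx2-5 did not. Cox7a1 and Cox8b, the other muscle forms, were at 8.14 and 7.00 in Cirh1a+/- replicate 3, against 7.97 and 7.09 in Cirh1a+/- replicate 1. Relative to the mean of the 6 livers, Cox7a1 was highest in Cirh1a+/- replicate 3 (0.24). It stood at 0.07 and 0.07 in the other Cirh1a+/- livers and at -0.42, 0.0009 and 0.03 in wild type. Cox8b stood at 0.01 in Cirh1a+/- replicate 3, 0.10 and 0.06 in the other Cirh1a+/- livers and -0.0002, -0.07 and -0.09 in wild type. In E12.5 liver Cox6a2 was at 4.24, 4.27 and 5.70 in Cirh1a+/- and 4.88, 5.10 and 5.05 in wild type. Replicate 3 of Cirh1a+/- was the highest. Its cardiac mean was 3.89, against 3.13 and 3.34 in the other Cirh1a+/- livers and 3.41 to 3.83 in wild type. By their mean over the E12.5 livers, only 9 of the 19 markers lay above the stage median. In E8.5 embryos Cox6a2 was at 5.79, 7.40 and 5.88 in Cirh1a+/- and 6.16, 7.90 and 7.30 in wild type, with cardiac means of 7.16, 7.72 and 7.43 and of 7.66, 7.77 and 7.90. The part of heart tissue in these values was not tested.

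Whether the heterozygotes differed from wild type in these genes was asked at each stage in a linear model over all target IDs whose mean lay above the stage median (limma, with Benjamini-Hochberg adjustment over every target ID tested and a threshold of 0.05). No oxidative phosphorylation gene passed the test at any stage. A single gene could not have passed an exact test either, since 3 arrays against 3 cannot give an exact two-sided p under 0.1. Differences below are Cirh1a+/- minus wild type on the log2 scale.

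**Figure D3:**
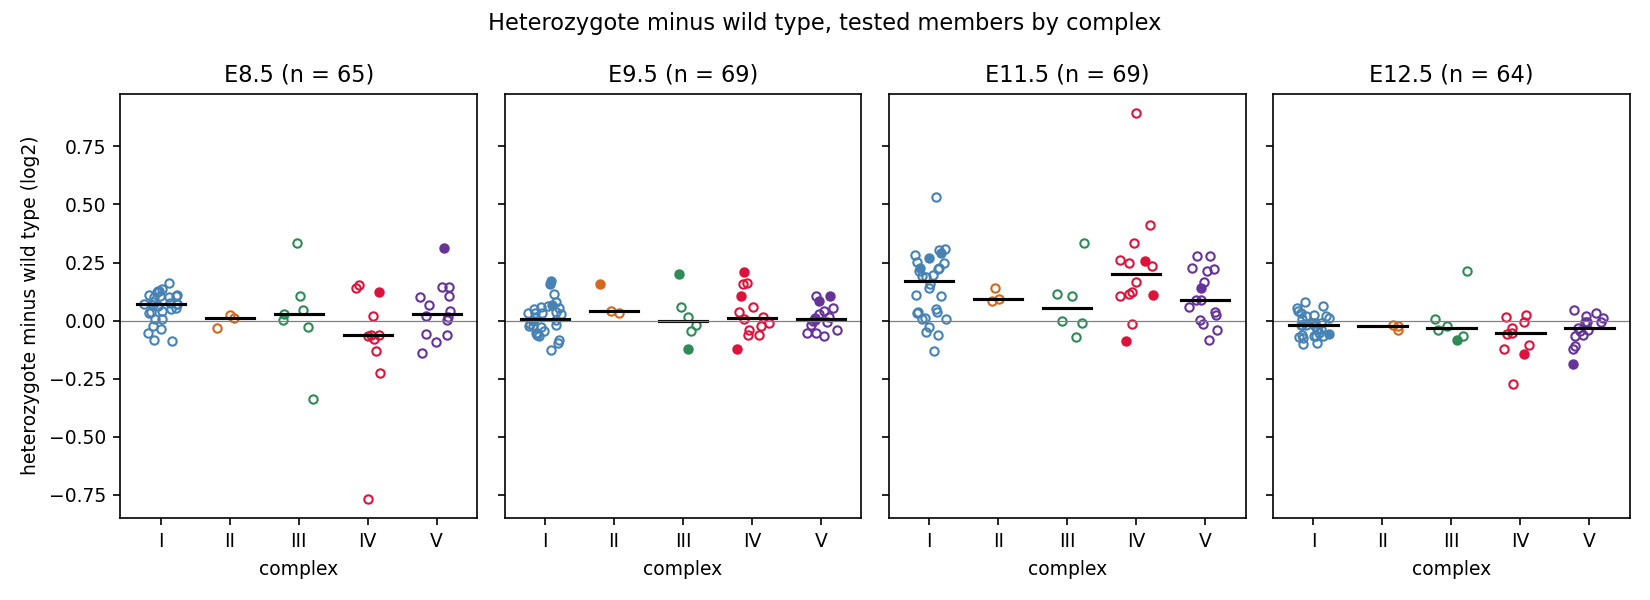
Difference, Cirh1a+/- minus wild type (vertical axis, log2), of each tested gene by complex (horizontal axis) at the 4 stages, with a bar at the median of each complex; filled points are genes whose 3 Cirh1a+/- values and 3 wild-type values do not overlap. The points of complexes I and IV lie mostly above 0 at E11.5 and close around 0 at E9.5 and E12.5.

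In E8.5 embryos 0 of 65 tested genes were called, beside 0.0238% of all target IDs, and 0 had an unadjusted p under 0.05, beside 3.77%. Of the 65, 46 were above 0, beside 50.4% of all target IDs, with a median difference of 0.04. Complex I had 25 of 30 above 0 (median 0.07), complex V 10 of 14 (0.03), complex III 5 of 7 (0.03), complex II 2 of 3 (0.01) and complex IV 4 of 11 (-0.06). This rested on single arrays: without wild type replicate 3 there were 33 above 0 (median 0.00), without Cirh1a+/- replicate 1 there were 35 (0.02), and without Cirh1a+/- replicate 3 there were 49 (0.10).

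The smallest p of the stage belonged to Atp5o, the stalk subunit that gives ATP synthase its oligomycin sensitivity. Its log2 values were 9.66, 9.64 and 9.32 in Cirh1a+/- and 9.32, 9.21 and 9.15 in wild type, with no overlap. The difference was 0.31 (SE 0.157, adjusted p = 1.00). Cox6a1 was the other gene without overlap (12.93, 12.80 and 12.76 in Cirh1a+/-, 12.73, 12.67 and 12.71 in wild type), so 2 of 65 were higher and 0 lower without overlap, beside 3.96% and 3.02% of all target IDs. Of the core complex I subunits, Ndufs7, which carries an iron-sulfur cluster next to the quinone site, differed by 0.14 (SE 0.145). The complex III subunit Uqcrb had values of 7.16, 8.10 and 7.62 in Cirh1a+/- and 7.93, 7.93 and 8.03 in wild type, so its difference of -0.34 (SE 0.250) came with an overlap. The 2 members on the X chromosome, Cox7b and Ndufa1, differed by -0.08 (SE 0.152) and -0.04 (SE 0.130). For 45 of the 65 genes the 95% interval of the difference lay within 0.5 on either side of 0; Cox6a2 had the widest, from -2.18 to 0.65.

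The E9.5 embryos gave the comparison with the smallest errors, and again 0 of 69 genes were called, beside 0.00635% of all target IDs. All 6 arrays of this stage carried both Xist and Y-linked transcripts. The part of pooled embryos in the small errors was not tested. The 95% interval lay within 0.5 of 0 for all 69. Of these, 39 were above 0, beside 50% of all target IDs, and the median was 0.01 (31 and -0.01 without Cirh1a+/- replicate 1), with complex medians of 0.01 (I), 0.04 (II), 0.00 (III), 0.01 (IV) and 0.01 (V). An unadjusted p under 0.05 was seen for 5 genes with positive and 1 with negative difference, 6 of 69 beside 11.1% of all target IDs.

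The 6 genes span 4 complexes. Cox7a1 had values of 9.35, 9.33 and 9.23 in Cirh1a+/- and 9.04, 9.13 and 9.12 in wild type, a difference of 0.21 (SE 0.0579, adjusted p = 0.240). Cyc1, the haem protein that hands electrons to cytochrome c, had 12.67, 12.56 and 12.52 in Cirh1a+/- and 12.37, 12.44 and 12.34 in wild type, a difference of 0.20 (SE 0.0606, adjusted p = 0.263). Sdhc had 11.45, 11.42 and 11.43 in Cirh1a+/- and 11.29, 11.23 and 11.30 in wild type, a difference of 0.16 (SE 0.0515, adjusted p = 0.301). In each of these 3 the Cirh1a+/- arrays stood above all wild-type arrays. Ndufa11 (0.16, adjusted p = 0.329) and Ndufb10 (0.17, adjusted p = 0.337), accessory subunits of the complex I membrane arm, did so too. Uqcrh went the other way, with 14.57, 14.52 and 14.57 in Cirh1a+/- below 14.67, 14.68 and 14.68 in wild type (-0.12, SE 0.0503, adjusted p = 0.415). In all, 9 of 69 were higher and 2 lower without overlap, beside 8.33% and 9.27% of all target IDs. The 4 further higher genes were Cox5b, Dmac2l (formerly Atp5s, a coupling factor), Atp5g1 and Ndufs6, and Cox6c was the second lower one.

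In E11.5 liver, most of these genes had lower values in 1 wild-type array, and the difference between genotypes rested on it. As deposited, 57 of 69 tested genes were above 0 in Cirh1a+/-, beside 49.6% of all target IDs, with a median of 0.12. By complex the counts were 26 of 30 (median 0.17) for complex I, 3 of 3 (0.09) for II, 3 of 6 (0.05) for III, 12 of 14 (0.20) for IV and 13 of 16 (0.09) for V. Called were 0 of 69, beside 0% of all target IDs, and 5 had an unadjusted p under 0.05, all with positive difference, beside 2.63%. Without wild type replicate 1, 41 of 69 were above 0, beside 51.5% of all target IDs, with a median of 0.02 and complex medians of -0.01 (I), 0.07 (II), 0.03 (III), 0.05 (IV) and 0.02 (V). Without wild type replicate 3 the count was 61, beside 49.4% of all target IDs, with a median of 0.25, and 0 were called.

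**Figure D4:**
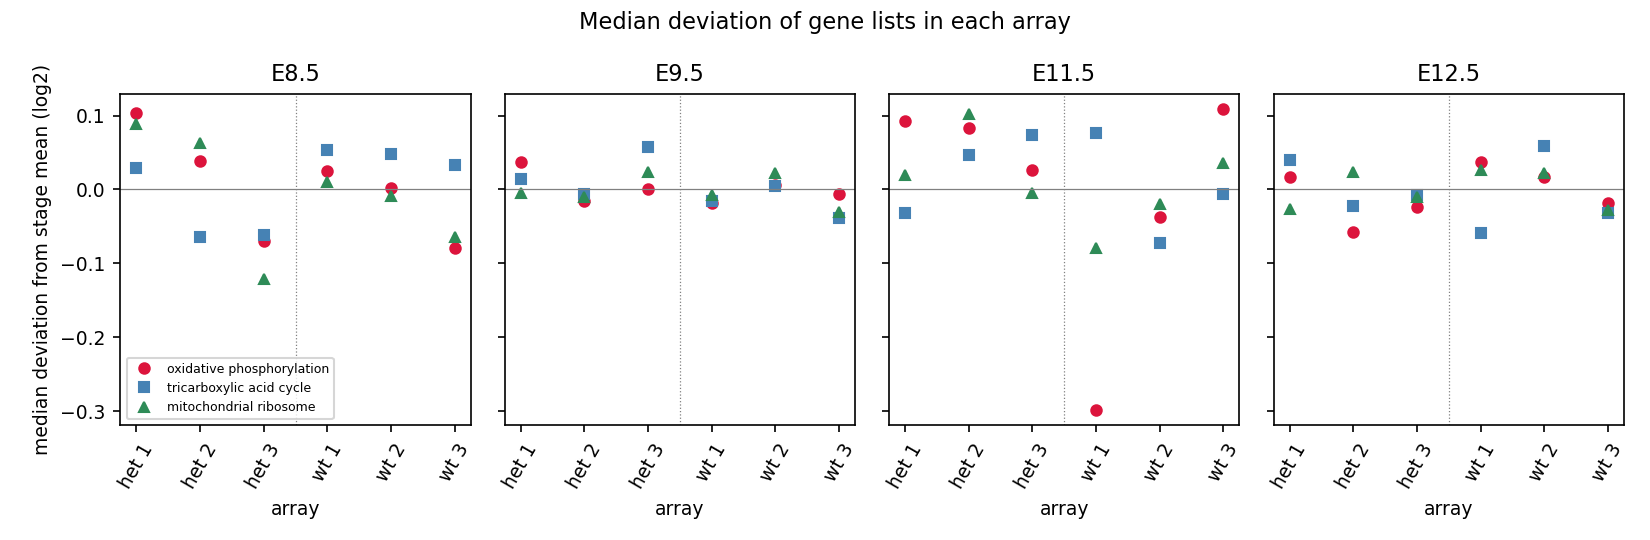
Median deviation (vertical axis, log2) of 3 gene lists from the mean of the 6 arrays of a stage, for each array (horizontal axis; het stands for Cirh1a+/-, wt for wild type), with 1 panel per stage and a dotted line between genotypes. Wild type replicate 1 at E11.5 stands at -0.30 for oxidative phosphorylation, below its own values for the tricarboxylic acid cycle (0.08) and the mitochondrial ribosome (-0.08).

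The deviation of each array from the mean of the 6 livers shows this array by array. The median over the 69 genes was 0.09, 0.08 and 0.03 in the Cirh1a+/- arrays and -0.30, -0.04 and 0.11 in the wild-type arrays. Wild type replicate 1 thus stood apart, and wild type replicate 3 lay above every Cirh1a+/- array. Replicate 1 was the lowest of the 6 arrays for 50 of the 69 genes, against 15.8% of all target IDs tested, and 34 of the 69 were more than 0.3 below the mean there, against 3.20% of all target IDs. In each of the other 5 arrays 0 or 1 of the 69 were.

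The complexes took unequal parts in this. In wild type replicate 1 the median deviation was -0.36 for complex I, -0.13 for complex II, -0.07 for complex III, -0.43 for complex IV and -0.17 for complex V. Within complex I, the accessory subunits had a median of -0.43 and the 6 tested core subunits, which carry the flavin and the iron-sulfur clusters, one of -0.02, a split made after the values were seen. The largest gaps were in Ndufa3, with 12.34, 12.17 and 11.98 in Cirh1a+/- and 10.72, 12.06 and 12.12 in wild type, and in Ndufa1, with 12.86, 12.74 and 12.74 in Cirh1a+/- and 11.83, 12.63 and 12.97 in wild type. Both are small membrane-arm subunits. The other 2 wild-type arrays lay within the Cirh1a+/- range for Ndufa3, and 1 below and 1 above it for Ndufa1. In other complexes, among genes chosen after their values were seen, Atp5e (the epsilon subunit) was 0.66 below the mean in the same array, Atp5j2 0.59, and Cox7b and Cox7c 0.57 each. Other members stood above the mean: Ndufv1 and Ndufa9 stood 0.19 above the mean, Uqcrc2, a core protein of complex III, 0.18 above, and Atp5c1, the rotating gamma shaft of ATP synthase, 0.16 above.

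**Figure D5:**
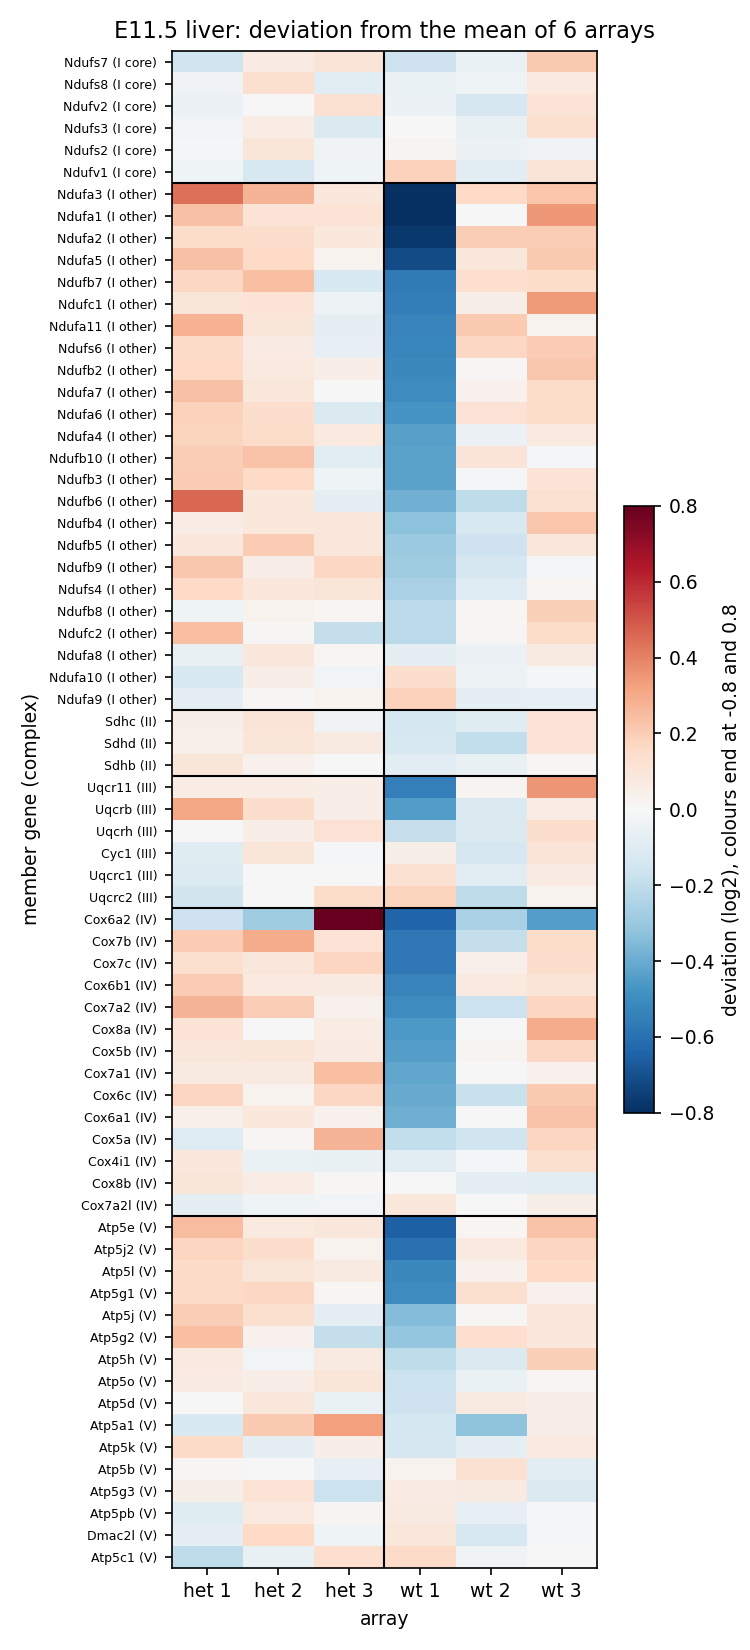
Deviation from the mean of the 6 E11.5 arrays (colour, log2; red above and blue below the mean) of each of the 69 tested genes (rows, by complex, with complex I split into core and other subunits) in the 6 arrays (columns; het stands for Cirh1a+/-, wt for wild type). The column of wild type replicate 1 is blue for most of complexes I, IV and V, from -1.18 in Ndufa3, and pale for the core subunits of complex I.

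Lists of other mitochondrial and housekeeping genes lay closer to the mean than the -0.30 of the members in wild type replicate 1 at E11.5, some of them below it. The median deviation there was 0.08 for the tricarboxylic acid cycle (13 genes), -0.03 for complex I assembly factors (13), -0.02 for assembly factors of complexes II to V (26), 0.07 for carriers and the ATP synthase inhibitor (9), -0.08 for mitochondrial ribosomal proteins (68), -0.10 for cytosolic ribosomal proteins (71) and 0.03 for proteasome subunits (34). Its hepatoblast mean of 11.29 and erythroid mean of 11.89 compared with 11.16 to 11.33 and 11.68 to 11.84 in the Cirh1a+/- arrays and with 11.14 to 11.20 and 11.68 to 11.85 in the other wild-type arrays. The part of RNA quality or hybridisation in this array was not tested.

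The genes with the smallest p at E11.5 were Ndufb9, Cox7b, Ndufs4, Uqcrb and Ndufb5, all with an adjusted p of 1.00. Ndufb9, a complex I accessory subunit, had 9.92, 9.76 and 9.86 in Cirh1a+/- and 9.42, 9.56 and 9.68 in wild type, without overlap, and a difference of 0.29 (SE 0.0910). Ndufs4, an accessory subunit whose loss causes mitochondrial disease, had 11.90, 11.82 and 11.83 in Cirh1a+/- and 11.48, 11.63 and 11.75 in wild type, also without overlap (0.23, SE 0.0881). Cox7b had 8.78, 8.87 and 8.70 in Cirh1a+/- and 8.00, 8.39 and 8.72 in wild type, where replicate 3 overlapped Cirh1a+/- (0.41, SE 0.159). In complex II, Sdhd had the smallest p (0.14, SE 0.0929), and in complex V Atp5a1, the alpha subunit (0.28, SE 0.134). Without overlap, 6 were higher (Ndufb9, Ndufs4, Ndufa4, Cox7a1, Atp5o and Cox8b) and 1 lower (Cox7a2l), beside 4.14% and 4.05% of all target IDs. Cox7a2l is filed under complex IV by name, and was left out where core subunits alone were taken. The 95% interval lay within 0.5 of 0 for 40 of the 69.

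In E12.5 liver 0 of 64 genes were called, beside 0% of all target IDs, and 0 had an unadjusted p under 0.05, beside 3.86%. Of the 64, 18 were above 0, beside 50.7% of all target IDs, with a median of -0.03 (26 and -0.01 without wild type replicate 1 or without Cirh1a+/- replicate 2, 14 and -0.06 without Cirh1a+/- replicate 1); by complex these were 10 of 30, 0 of 3, 2 of 6, 2 of 10 and 4 of 15 for complexes I to V. The median of each complex lay between -0.05 and -0.02. The array medians overlapped between genotypes, at 0.02, -0.06 and -0.02 in Cirh1a+/- and 0.04, 0.02 and -0.02 in wild type.

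Single genes at E12.5 differed little. Atp5k, which joins ATP synthase dimers, had 4.63, 4.45 and 4.63 in Cirh1a+/- and 4.69, 4.85 and 4.74 in wild type, a difference of -0.19 (SE 0.0998, adjusted p = 1.00). Cox7a2l had 11.60, 11.56 and 11.52 in Cirh1a+/- and 11.74, 11.66 and 11.71 in wild type, a difference of -0.14 (SE 0.0835). With Cyc1 (-0.08) and Ndufb8 (-0.06) these were the 4 genes lower without overlap, beside 3.6% of all target IDs, and 0 were higher, beside 3.52%. The smallest p of complex I was that of Ndufa5 (0.08, SE 0.0981) and of complex II that of Sdhb (-0.04, SE 0.104). For 60 of the 64 genes the 95% interval lay within 0.5 of 0.

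Over all 24 arrays, the average of the 4 within-stage differences called 0 of 67 genes, beside 0% of all target IDs. Above 0 were 57 of 67, beside 50.3%, with a median of 0.04; without E11.5 wild type replicate 1 there were 47, with a median of 0.02. Atp5o had the smallest p (0.12, SE 0.0455, adjusted p = 0.860) and was the only one of the 67 with an unadjusted p under 0.05, beside 5.37%. Cox7a2l followed with -0.09 (SE 0.0429, adjusted p = 0.930), and then Ndufa4 (0.11), Cox8b (0.12) and Cox7a2 (0.12). Of 63 genes tested at all 4 stages, Ndufa7, Ndufb3, Ndufb9 and Ndufs6 were above 0 at each (6.35%) and Cox7a2l below 0 at each (1.59%), against 7.96% and 7.81% of 8929 target IDs.

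The liver effects minus the embryo effects called 0 of 67 genes, beside 0.0061% of all target IDs, and 0 had an unadjusted p under 0.05, beside 4.87%. There were 35 above 0, beside 48.7%, with a median of 0.01, and 23 without E11.5 wild type replicate 1, with a median of -0.04. The smallest p belonged to Uqcrb, with a difference of 0.44 (SE 0.252, adjusted p = 0.998), followed by Cox6c (0.19, SE 0.118), Cyc1 (-0.13, SE 0.0883), Ndufs4 (0.13, SE 0.0889) and Ndufa5 (0.25, SE 0.174). Tissue and stage cannot be told apart in this contrast.

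The rest of the pathway gave no call either. At E9.5, the stage with the smallest errors, an unadjusted p under 0.05 was seen for 1 of 9 carriers and inhibitor genes (Etfb, an electron carrier for fatty acid oxidation, 0.20, SE 0.0576, adjusted p = 0.248), 1 of 13 complex I assembly factors (Ecsit, 0.20), 0 of 26 assembly factors of complexes II to V, 1 of 13 tricarboxylic acid cycle genes (Idh3b, 0.14) and 2 of 15 genes of mitochondrial gene expression and biogenesis. The last 2 included Ppargc1a, the coactivator of mitochondrial biogenesis, with 7.47, 7.60 and 7.46 in Cirh1a+/- and 7.25, 7.27 and 7.17 in wild type (0.28, SE 0.0614, adjusted p = 0.168). These shares stand beside 11.1% of all target IDs. At E11.5 the median of the tricarboxylic acid cycle list was 0.03 with 8 of 13 above 0, that of the complex I assembly list 0.03 with 9 of 13, and that of the mitochondrial ribosomal list 0.06 with 55 of 68, beside 49.6% of all target IDs. Without wild type replicate 1 the tricarboxylic acid cycle list had 10 of 13 above 0 (median 0.08), the complex I assembly list 7 of 13 (0.01) and the mitochondrial ribosomal list 42 of 68 (0.03).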

How the data were processed

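Total RNA, labelled as biotinylated cRNA per the labels, was read on Illumina mouse arrays. The deposited values are log2 values per target ID made by the authors; background correction, normalization, software and genome build are not given in the sources used here. Arrays of E8.5 and E12.5 have 1 common distribution, those of E9.5 and of E11.5 each another, so stages were not tested against each other. A further 48 columns of values in 4 tables match no sample label and were not used; only probe counts were read from those tables. The members and all gene lists were chosen with earlier results of these data known.

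Target IDs with a mean above the stage median were fitted in R 4.3.3 with limma 3.58.1 (lmFit, eBayes), Cirh1a+/- minus wild type, 3 arrays per group. The average and the liver-minus-embryo contrasts came from 1 fit of all 24 arrays, over target IDs with values on all of them and above the median in at least 1 stage. p-values were two-sided and adjusted by the Benjamini-Hochberg method over all target IDs tested. The number of arrays limits the precision, and nothing shows that samples of a group came from separate litters, so p-values measure the spread between these samples. The fit was tested on simulated data. Named were, per complex and stage, the gene with the smallest p, the brightest and dimmest gene per complex, the 5 most and 5 least stable in rank, the 5 smallest p of each contrast over stages, and the tissue isoforms, subunit c and complex II genes; others were chosen after their values were seen. Same-numbered samples did not deviate together at every pair (correlations 0.18, 0.13 and 0.10 at E8.5 and from -0.39 to 0.10 elsewhere), so numbers were not taken as pairs. Alternatives were level filters, rescaling, an eBayes trend, a replicate block, the joint fit, a Y-linked covariate, other ranking sets, core subunits alone and leaving out each array. Gene names came from RefSeq, where 70 of 74 matched by symbol and 4 by synonym.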

Additional observations from a re-analysis of the deposited data

Results flagged for a closer look

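Cyc1, the haem subunit of complex III, had opposite signs at 2 stages without overlap between the groups, and passed the test at neither. The same pattern, at any 2 stages, was seen in 1 of 63 members (1.59%), beside 1.88% of 8929 target IDs tested at all 4 stages. In E9.5 embryos its values were 12.67, 12.56 and 12.52 in Cirh1a+/- and 12.37, 12.44 and 12.34 in wild type, a difference of 0.20 (SE 0.0606, adjusted p = 0.263 by limma). In E12.5 liver they were 11.74, 11.66 and 11.78 in Cirh1a+/- and 11.82, 11.82 and 11.79 in wild type, a difference of -0.082 (SE 0.0840, adjusted p = 1.00 by limma). The difference between these 2 stages was not tested itself; liver minus whole embryo over all stages was -0.13 (SE 0.0883, adjusted p = 0.998). Groups of 3 arrays are too small for a formal test of single outlying arrays.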

How the results depend on the processing

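No oxidative phosphorylation gene was called under any alternative, at any stage or in the contrasts over stages. Genes named for the smallest p kept their direction and side of the threshold in 219 of 219 values under alternatives that use all arrays. In the fits with an array left out they did so in 357 of 360. Sdhc at E8.5 then ranged from -0.10 to 0.043 and Sdhb at E12.5 from -0.12 to 0.018. Genes named only by other rules were not checked in this way. With an array left out, the members above 0 numbered 33 to 49 at E8.5, 31 to 42 at E9.5, 41 to 61 at E11.5, 14 to 26 at E12.5, 47 to 61 on average and 23 to 42 for liver minus embryo. Without both wild type replicate 1 and Cirh1a+/- replicate 3 at E11.5, chosen after seeing the data, 47 of 69 were above 0 (median 0.03). The median percentile ranked among target IDs with 1 probe was 97.1, 97.8, 97.9 and 98.1 at the 4 stages, and 96.9 at E9.5 among all target IDs.

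Over all target IDs, calls numbered 3 at E8.5 and 291 in the joint fit, where 1 spread is taken for all stages; 1 at E9.5, with 10 above the upper tertile, 14 with trend, 0 in the joint fit, 0 with the Y-linked covariate and 0 to 54 with an array left out; 0 at E12.5, with 1 with trend and 40 in the joint fit; 0 on average, with 2 with trend and 0 to 51 with an array left out; and 1 for liver minus embryo, with 0 to 68. With the replicate block the counts were 2 at E8.5, 2 at E9.5 and 0 at E11.5, E12.5, on average and for liver minus embryo, with 0 members called; at E8.5 each sample correlated best with its own number, a hint from the data. The covariate could not be used at E8.5, and each gene has 1 target ID, so the alternative over several could not be run. Causes were not tested.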
